A study of Mus musculus with 14 samples.

Results

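The collagen genes are taken here as a family, by every gene of the array whose platform symbol has the form Col, a type number, a and a chain number. This rule found 42 genes among the 19505 genes with a symbol, each measured by 1 row of the table, and it used no measured value. By class they are 11 fibrillar collagens, 8 fibril-associated collagens, 6 chains of the basement membrane type IV collagen, 6 chains of type VI collagen and 11 others. No row carried the symbol Col7a1, Col12a1 or Col21a1, and 2570 transcript clusters had no symbol, so these 3 collagens are not covered. Collagen chains wind around each other into a stiff helix, and the fibrillar ones pack into the fibrils that give tissue its tensile strength. Fibril-associated collagens coat those fibrils, type IV chains form the sheet under epithelia, vessels and muscle cells, and type VI chains form beaded filaments close to the cell surface. In the infarcted heart, fibroblasts lay down the collagen scar that replaces lost muscle.

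The arrays measured total RNA of fibroblasts sorted without culture from adult C57BL/6 mice of the genotype TCF21-MerCreMer;R26GFP. In these mice a tamoxifen-regulated Cre is expressed from the Tcf21 locus and switches on GFP, so that the label covers resident cells that used Tcf21 when tamoxifen was given and their progeny. All mice, the uninjured ones too, carried both alleles and had received tamoxifen, and the gate for GFP-positive cells was set on wild-type cells without the reporter. From the infarct area after permanent ligation of the left coronary artery (MI) there were 3 arrays each at 3 days and 7 days, 2 at 2 weeks and 3 at 4 weeks, and from the left ventricle of uninjured hearts there were 3. Signals are on a log2 scale, so a difference of 1 is a 2-fold change, and since each gene has its own probes, levels are compared between groups and not between genes. A gene was called changed at an adjusted p under 0.05 (limma, Benjamini-Hochberg over all genes), and a signal of 5.89 served as background, a level that only 5% of 1412 odorant and pheromone receptor genes exceed.

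Arrays of a group correlated at 0.971 to 0.992. The 5 arrays numbered 1 stood apart from the other 9, with 36.3% of all genes and 15 of the collagens differing between them, and 4 arrays (7 days replicate 2, both arrays at 2 weeks and 4 weeks replicate 1) were low in the Y-linked genes Uty and Kdm5d. All 6 measured fibroblast markers were above background in every group mean. Of these, Tcf21 was called lower than in uninjured hearts at 3 days, 7 days and 2 weeks (log2 differences of -2.35, -1.99 and -1.45). Lum was lower at 3 days (-0.99) and Thy1 at 2 and 4 weeks (-1.21 and -1.89). Dcn, Ddr2 and Vim were called at no time against uninjured hearts. Macrophage markers were higher at 7 days in 10 of 11 cases, with a summed signal of 13.27 to 15.63 at 7 days and 9.21 to 9.57 in uninjured hearts. All 4 myofibroblast markers were higher at 3 days and at 7 days, and their summed signal was 18.13 to 18.41 at 3 days, 18.27 to 18.70 at 7 days, then 17.76 to 18.02 at 2 weeks and 16.72 to 16.80 at 4 weeks, against 15.40 to 15.65 in uninjured hearts. The summed signal of 8 endothelial markers was 9.44 to 10.28 at 3 days and 12.32 to 12.59 in uninjured hearts. It was 12.22 to 12.49 at 7 days, 10.99 to 13.52 at 2 weeks and 11.25 to 12.71 at 4 weeks. That of 7 cardiomyocyte markers was 9.11 to 9.38 at 3 days, 9.52 to 10.18 at 7 days, then 9.46 to 10.44 at 2 weeks and 9.57 to 11.58 at 4 weeks, against 10.12 to 12.32 in uninjured hearts, and at 3 days all 7 had a lower mean than in uninjured hearts, 2 of them called. The part of these cell types in the collagen values was not tested.

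Of the 42 genes, 34 were above background in at least 1 group mean and 24 in all 5, while 5 stayed below it on every array. RefSeq sequence of GRCm38.p6 around the outermost 5′ end of the gene is shown for 3 genes that carry the main results, read 5′ to 3′ on the gene's strand, with the first 20 bases of the gene at the right. They are Col1a2 (chr6:4505468-4505637, plus strand) and Col11a1 (chr3:114030329-114030498, plus strand), which rose, with 150 bases before the gene, and Col6a6 (chr9:105828227-105828335, minus strand), which fell, with the 89 bases that the table holds. Capitals mark the motif CCAAT (or ATTGG, its form on the opposite strand), the motif GGGCGG (or CCGCCC, its form on the opposite strand) and the motif TATAAA (or TTTATA).
Col1a2: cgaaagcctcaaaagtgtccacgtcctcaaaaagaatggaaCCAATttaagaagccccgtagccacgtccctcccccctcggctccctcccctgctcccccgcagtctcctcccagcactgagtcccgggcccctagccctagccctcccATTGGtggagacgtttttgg
Col11a1: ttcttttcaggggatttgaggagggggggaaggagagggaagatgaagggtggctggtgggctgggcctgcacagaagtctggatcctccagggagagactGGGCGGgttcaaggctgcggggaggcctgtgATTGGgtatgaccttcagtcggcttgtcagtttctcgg
Col6a6: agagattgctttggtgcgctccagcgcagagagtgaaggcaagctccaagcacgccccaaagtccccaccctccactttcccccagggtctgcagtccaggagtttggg
Col1a2 held CCAAT from position -109 and ATTGG from the first base of the gene. Col11a1 held GGGCGG from position -49 and ATTGG from -18, and the stretch of Col6a6 held none of the 3 motifs. The promoter table places its own start 61 bases inside Col11a1 and 161 bases inside Col6a6, and which transcripts begin there was not examined. In the 250 bases before the table's start, CCAAT on either strand occurred in 12 of the 37 RefSeq windows of 34 collagen genes (32.4%), against 33.8% of 32851 windows of all genes. GGGCGG occurred in 21 of 37 (56.8%), against 32.7% of all windows, and TATAAA in 5 of 37 (13.5%), against 12.4%. These matches describe the letters only.

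Collagen expression changed at every time after MI, with most rises in the fibrillar class and at 7 days. Over the 5 groups, 15 of 42 collagens differed by limma's F test of all 4 times against uninjured hearts at once (35.7%), against 15.4% of all genes. Against uninjured fibroblasts, 8 collagens were higher and 5 lower at 3 days, where 6.74% of all genes were higher and 5.82% lower. At 7 days 10 were higher and 3 lower (all genes 4.62% and 3.49%), at 2 weeks 8 were higher and 1 lower (all genes 1.31% and 1.18%), and at 4 weeks 2 were higher and 2 lower (all genes 0.995% and 0.918%). In percent of the family, the higher calls made up 19% at both 3 days and 2 weeks, with 23.8% at 7 days in between and 4.76% at 4 weeks. In all, 11 collagens were higher and 6 lower at 1 or more times, none of them in both directions, and 25 were called at no time. Of the 15 genes called by the F test, 8 had their highest mean at 7 days, 3 at 2 weeks and 4 in uninjured hearts. The counts over times and of highest means were not made for all genes, so they only describe the family. As these are bulk RNA samples, fewer cells that use a gene and less of its RNA per cell cannot be told apart.

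**Figure D1:**
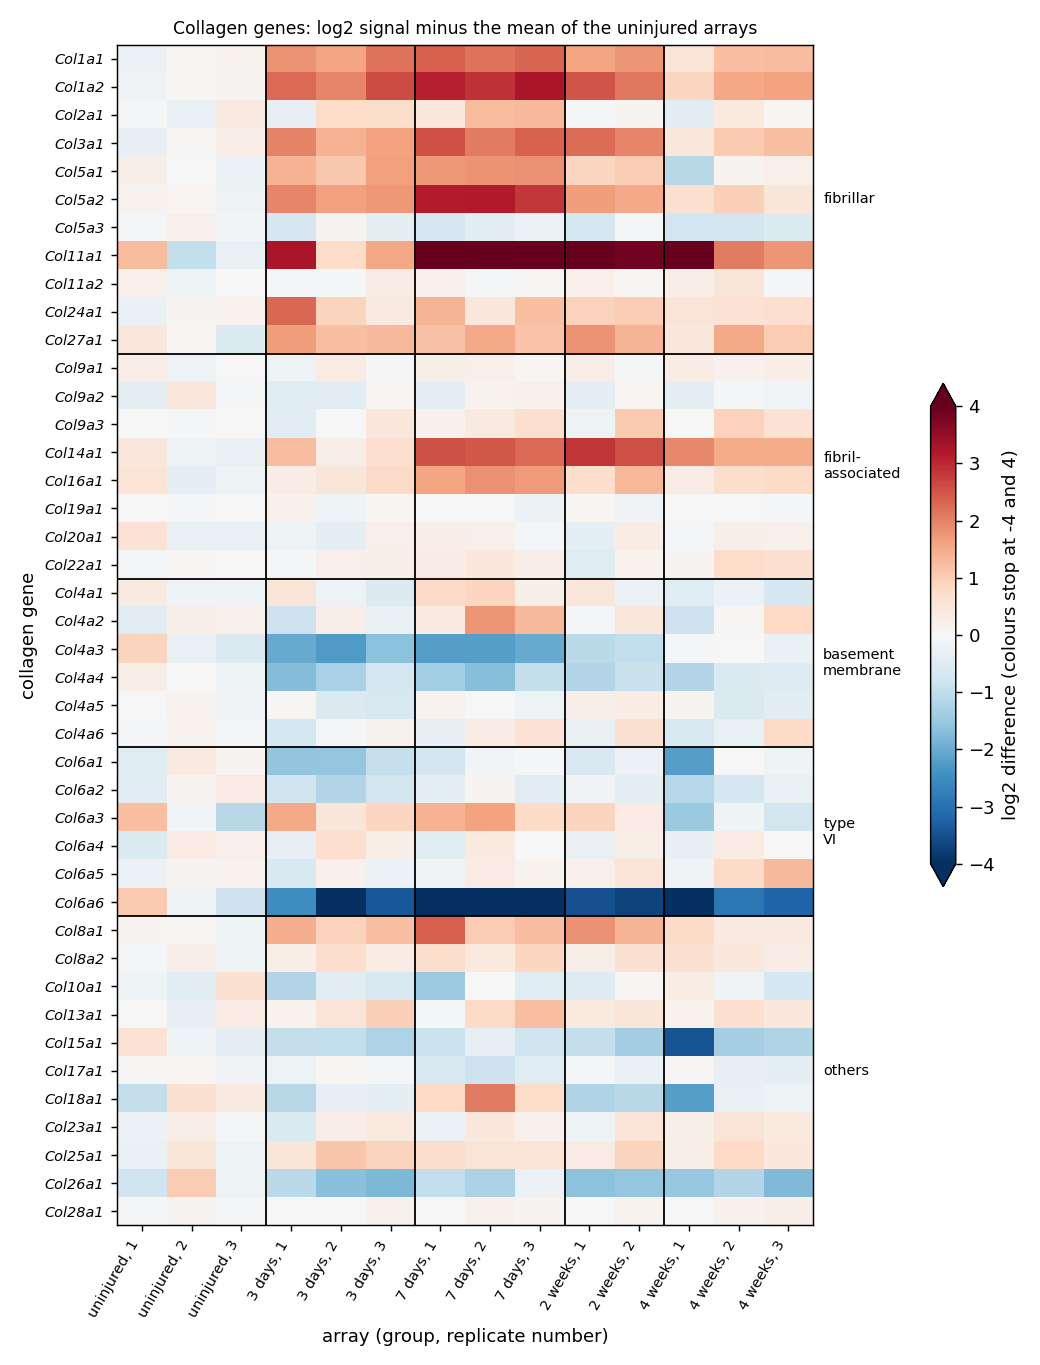
Log2 signal of each of the 42 collagen genes (rows, by class) on each of the 14 arrays (columns, by group and replicate number), minus the mean of the 3 uninjured arrays, with colours that stop at -4 and 4. The called rises lie among the fibrillar genes, Col14a1, Col16a1, Col8a1 and, below background, Col25a1, and the deepest fall is that of Col6a6, while most other rows stay pale.

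**Figure D2:**
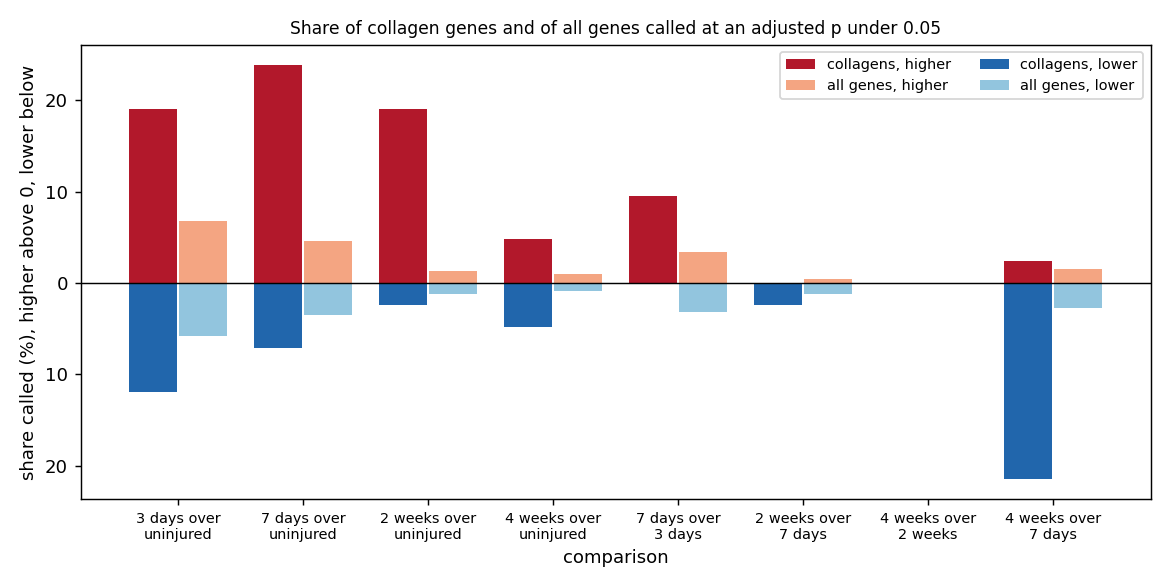
Share of the 42 collagens (dark bars, left) and of all 19505 genes (light bars, right) called at an adjusted p under 0.05 in each comparison, with higher calls above 0 and lower calls below, in percent. The collagens' highest shares are 23.8% higher at 7 days than in uninjured hearts and 21.4% lower at 4 weeks than at 7 days.

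Col1a1, Col1a2 and Col3a1, which encode the chains of the type I and type III fibrils of the scar, rose at 3 days and were highest at 7 days. Col1a1 had log2 signals of 17.21, 16.98 and 17.58 at 3 days, 17.79, 17.57 and 17.75 at 7 days, then 16.99 and 17.19 at 2 weeks and 15.92, 16.61 and 16.65 at 4 weeks, against 15.19, 15.49 and 15.55 in uninjured hearts. Every array after MI was above every uninjured array. The log2 differences from uninjured fibroblasts were 1.85 ± 0.23 (SE, adjusted p = 0.000132) at 3 days, 2.30 ± 0.23 (adjusted p = 2.94e-05) at 7 days and 1.68 ± 0.26 (adjusted p = 0.00271) at 2 weeks, the last lost without 2 weeks replicate 2. At 4 weeks the difference of 0.98 ± 0.23 just missed a call (adjusted p = 0.0506, and 0.0154 with the replicate number as a block).

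Col1a2, the second chain of type I collagen, had signals of 13.93, 13.61 and 14.27 at 3 days, 14.77, 14.54 and 14.90 at 7 days, then 14.15 and 13.77 at 2 weeks and 12.51, 13.20 and 13.27 at 4 weeks, against 11.50, 11.69 and 11.77 in uninjured hearts. It rose 4.87-fold at 3 days, 8.49-fold at 7 days (adjusted p = 4.35e-06) and 4.95-fold at 2 weeks, and was still 2.53-fold higher at 4 weeks (adjusted p = 0.0102), a call lost without 4 weeks replicate 2 or replicate 3. Col3a1 had signals of 16.21, 15.61 and 15.82 at 3 days, 16.81, 16.30 and 16.57 at 7 days, then 16.44 and 16.17 at 2 weeks and 14.68, 15.27 and 15.42 at 4 weeks, against 13.88, 14.28 and 14.50 in uninjured hearts. It was 3.16-fold, 5.06-fold and 4.24-fold higher at 3 days, 7 days and 2 weeks (adjusted p = 0.000582, 5.38e-05 and 0.00108). At 4 weeks its arrays lay above those of uninjured hearts, with a log2 difference of 0.90 ± 0.26 (SE) that was not called (adjusted p = 0.119).

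The minor fibrillar collagens, type V and type XI, copolymerize with type I and set the start and width of fibrils. Col5a2 had signals of 9.80, 9.49 and 9.57 at 3 days, 10.98, 11.01 and 10.68 at 7 days, then 9.52 and 9.36 at 2 weeks and 8.49, 8.79 and 8.33 at 4 weeks, against 7.98, 7.92 and 7.64 in uninjured hearts. The groups at 3 days, 7 days and 4 weeks did not overlap with one another. Col5a2 was 3.42-fold higher at 3 days (adjusted p = 4e-05), 8.25-fold higher at 7 days (adjusted p = 4.53e-07) and 3.02-fold higher at 2 weeks (adjusted p = 0.00108). Both 2-week arrays and no uninjured array were low in the Y-linked genes, and with that class as a block the 2-week calls of Col5a2, Col11a1, Col27a1, Col8a1 and Col6a6 were lost (adjusted p = 0.0575, 0.308, 0.181, 0.208 and 0.784). The partner chain gene Col5a1 had signals of 14.56, 14.24 and 14.79 at 3 days, 14.89, 14.96 and 14.99 at 7 days, then 14.01 and 14.17 at 2 weeks and 12.04, 13.27 and 13.36 at 4 weeks, against 13.39, 13.17 and 12.91 in uninjured hearts. It rose 2.59-fold at 3 days and 3.46-fold at 7 days (adjusted p = 0.00712 and 0.00168), and at 2 weeks its log2 difference of 0.93 ± 0.34 was not called (adjusted p = 0.23). At 4 weeks 1 array was below every uninjured array and the difference was -0.26.

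Col11a1, a chain of type XI collagen best known from cartilage, had the largest rise of the family. Its signals were 9.0, 6.47 and 7.28 at 3 days, 12.63, 10.73 and 12.11 at 7 days, then 11.45 and 9.60 at 2 weeks and 10.27, 7.83 and 7.51 at 4 weeks, against 7.00, 4.80 and 5.44 in uninjured hearts, where only 1 of 3 arrays was above background. All arrays at 7 days, 2 weeks and 4 weeks were above all uninjured arrays, while those at 3 days overlapped with them. The log2 difference was 6.07 ± 0.85 (SE, adjusted p = 0.000411) at 7 days and 4.78 ± 0.95 (adjusted p = 0.0142) at 2 weeks, the second lost without uninjured replicate 2 or 3 or 2 weeks replicate 1. With the uninjured arrays below background set to the background level, the differences were 5.56 at 7 days and 4.27 at 2 weeks, the first still the largest of the family. At 3 days the measured difference was 1.84 (adjusted p = 0.212) and at 4 weeks 2.79 (adjusted p = 0.161), with the replicate number as a block 0.00116 and 0.000323. In each of the 5 groups the array numbered 1 had the highest Col11a1 signal.

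Col27a1, a fibrillar collagen of cartilage matrix, had signals of 7.84, 7.38 and 7.49 at 3 days, 7.34, 7.68 and 7.32 at 7 days, then 7.97 and 7.53 at 2 weeks and 6.62, 7.68 and 7.20 at 4 weeks, against 6.63, 6.27 and 5.63 in uninjured hearts. Unlike the genes above it showed no peak at 7 days, with log2 differences of 1.39 ± 0.30, 1.27 ± 0.30 and 1.58 ± 0.34 (SE, adjusted p = 0.00646, 0.0167 and 0.0217) at 3 days, 7 days and 2 weeks. The call at 7 days was lost without uninjured replicate 3 or 7 days replicate 2, and that at 2 weeks without uninjured replicate 2 or 3 or either array at 2 weeks. Of the 4 fibrillar genes called at no time without the replicate block, Col24a1 had a log2 difference of 1.19 at 3 days (adjusted p = 0.0639, and 0.0414 with the block). For Col2a1, the main collagen of cartilage, it was 1.01 at 7 days (adjusted p = 0.0936, and 0.0137 with the block). Col24a1 and Col2a1 were below background on all uninjured arrays. Col24a1 was also below it on 3 days replicate 3 (5.59), and Col2a1 on 7 days replicate 1 (5.85). Col11a2 and Col5a3 differed by at most 0.23 and 0.69 between any 2 group means. By class, 6 of 11 fibrillar collagens were higher at 3 days, 7 at 7 days, with 6 called at 2 weeks and 1 at 4 weeks. Of all genes, 6.74%, 4.62%, 1.31% and 0.995% were higher at these times. All 4 myofibroblast markers were higher at 3 and 7 days too. At 2 weeks Postn and Cthrc1 were called and Acta2 and Tagln, with log2 differences of 1.98 and 1.6, were not (adjusted p = 0.157 and 0.185). At 4 weeks 3 of the 4 were called, and the part of this cell state in the class was not tested. The class median log2 difference was 1.39, 1.79, 1.58 and 0.69 at these times, and that of all genes -0.02, 0.02, -0.02 and 0.01.

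**Figure D3:**
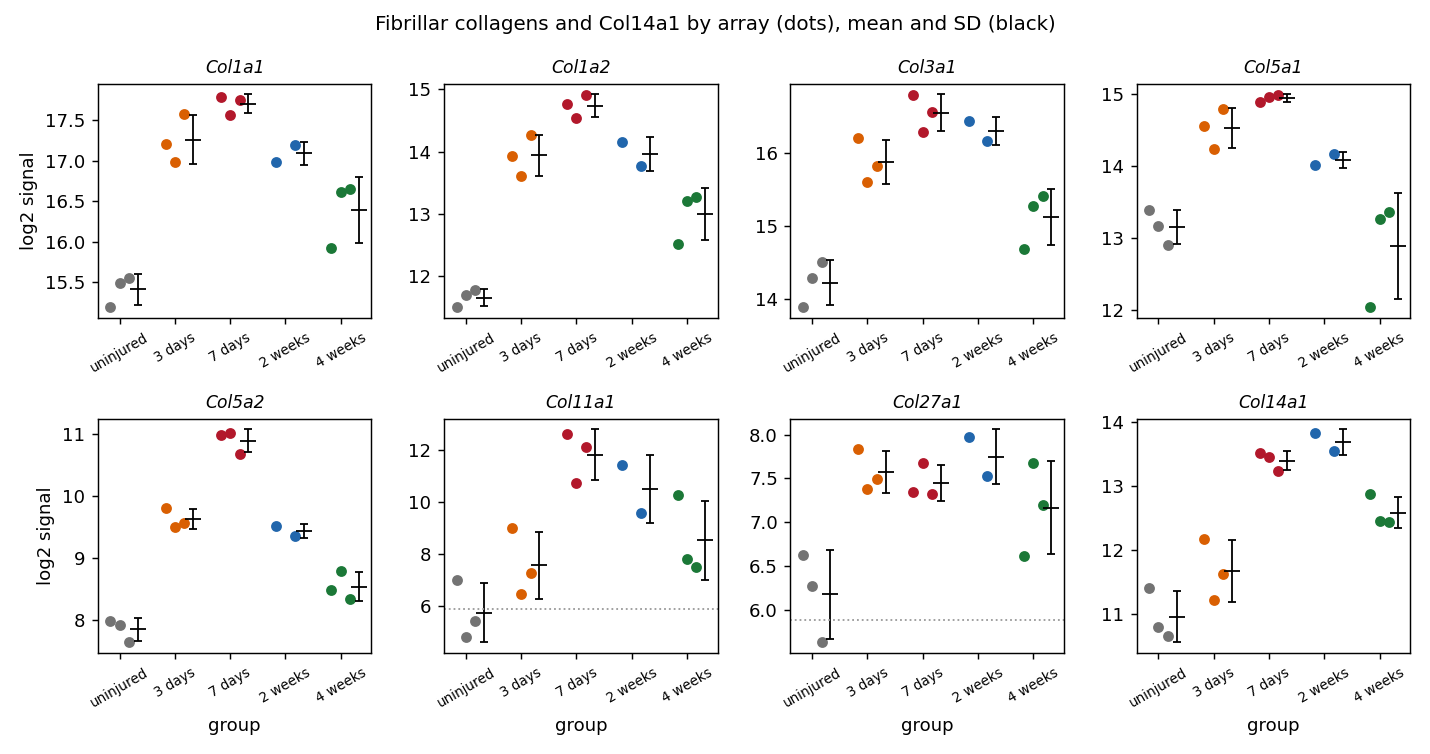
Log2 signal of 7 fibrillar collagens and of Col14a1 on each array (dots) by group, with the group mean and SD in black and the background level of 5.89 as a dotted line where it falls in range. Col1a1, Col1a2, Col3a1, Col5a1, Col5a2 and Col11a1 have their highest mean at 7 days, Col27a1 and Col14a1 at 2 weeks.

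Among the fibril-associated collagens, 2 of the 8 measured were called by the F test, against 15.4% of all genes. Col14a1, whose protein binds fibril surfaces and is prominent in tendon and skin, had signals of 12.18, 11.22 and 11.63 at 3 days, 13.51, 13.45 and 13.23 at 7 days, then 13.83 and 13.55 at 2 weeks and 12.87, 12.45 and 12.44 at 4 weeks, against 11.41, 10.80 and 10.66 in uninjured hearts. It overlapped with uninjured hearts at 3 days, when its log2 difference was 0.72 (adjusted p = 0.105, and 0.0154 with the replicate block), and was above all of them later. The log2 difference was 2.44 ± 0.27 (SE, adjusted p = 5.5e-05) at 7 days, 2.73 ± 0.30 (adjusted p = 0.000186) at 2 weeks and 1.63 ± 0.27 (adjusted p = 0.00447) at 4 weeks, with 66.8% of the difference at 7 days left at 4 weeks. The corresponding share was 42.7% for Col1a1, 43.4% for Col1a2, 38.6% for Col3a1 and 22.6% for Col5a2. Among the other collagens called higher at 7 days it was 77.7% for Col27a1, 46% for Col11a1, 36.3% for Col16a1 and 31.4% for Col8a1. For Col5a1 it was -14.8%, as its mean at 4 weeks was below that of uninjured hearts. That sign rested on replicate 1, with signals of 12.04, 13.27 and 13.36 at 4 weeks, against an uninjured mean of 13.16. Replicate 1 was the lowest 4-week array for Col1a1, Col1a2, Col3a1, Col5a1, Col16a1 and Col27a1. It was the highest for Col14a1, Col11a1 and Col8a1, and its part in the shares was not tested. Whether these shares differ from each other was not tested.

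Col16a1, a fibril-associated collagen that also occurs near basement membranes, had signals of 9.48, 9.66 and 9.97 at 3 days, 10.77, 11.03 and 10.89 at 7 days, then 9.90 and 10.51 at 2 weeks and 9.52, 9.90 and 10.0 at 4 weeks, against 9.75, 8.82 and 9.0 in uninjured hearts. At 7 days it was 3.27-fold higher (adjusted p = 0.000927), and at 2 weeks the log2 difference was 1.01 (adjusted p = 0.108). The other 6 genes of the class, Col9a1, Col9a2, Col9a3, Col19a1, Col20a1 and Col22a1, were called in no comparison. Type IX collagen, which its 3 Col9 genes encode, coats the fibrils of cartilage. Both Col9a1 and Col9a2 stayed below background on every array, as did Col19a1, and the group means of Col9a3 ranged over 0.51.

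Type IV collagen is built from 3 gene pairs, of which Col4a1 and Col4a2 make the network of nearly all basement membranes and Col4a3 to Col4a6 those of kidney, lung and a few other tissues. In these fibroblasts the pair Col4a3 and Col4a4 fell early. Col4a3 had signals of 7.31, 7.05 and 7.69 at 3 days, 7.12, 7.14 and 7.31 at 7 days, then 8.24 and 8.34 at 2 weeks and 9.29, 9.33 and 9.06 at 4 weeks, against 10.23, 9.03 and 8.74 in uninjured hearts. The 3 times up to 2 weeks lay below all uninjured arrays and 4 weeks lay within their range. It was 3.94-fold lower at 3 days and 4.41-fold lower at 7 days (adjusted p = 0.000704 and 0.000586). Cardiomyocyte and endothelial markers were below their uninjured range at 3 days. At 7 days both overlapped with it, with an endothelial sum of 12.22 to 12.49, against 12.32 to 12.59 in uninjured hearts. The part of these cells in the Col4a3 values was not tested. At 2 weeks the log2 difference of Col4a3 was -1.04 (adjusted p = 0.183) and at 4 weeks -0.10.

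Col4a4 had signals of 5.40, 5.85 and 6.45 at 3 days, 5.79, 5.45 and 6.20 at 7 days, then 5.98 and 6.25 at 2 weeks and 5.98, 6.58 and 6.62 at 4 weeks, against 7.36, 7.13 and 6.94 in uninjured hearts. Every array after MI was below every uninjured one, and at 3 and 7 days only 1 of 3 arrays was above background. The log2 differences of -1.24 ± 0.29 at 3 days and -1.33 ± 0.29 at 7 days (SE, adjusted p = 0.0103 and 0.00962) were called. The first was lost without 3 days replicate 1 and the second without 7 days replicate 2, and those of -1.03 at 2 weeks and -0.75 at 4 weeks were not called (adjusted p = 0.145 and 0.367). In RefSeq the genes Col4a4 and Col4a3 overlap by 114 bases on chromosome 1, at the 5′ end of Col4a4. Col4a1 and Col4a2 overlap by 85 bases on chromosome 8, and 1274 bases separate Col4a6 and Col4a5 on chromosome X.

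The other 4 type IV genes were called at no time against uninjured hearts. Col4a1 had signals of 8.75, 8.07 and 7.72 at 3 days, 9.03, 9.13 and 8.50 at 7 days, then 8.71 and 8.03 at 2 weeks and 7.77, 8.01 and 7.59 at 4 weeks, against 8.62, 8.09 and 8.08 in uninjured hearts. Col4a2 had signals of 8.32, 9.41 and 8.86 at 3 days, 9.52, 10.91 and 10.46 at 7 days, then 9.09 and 9.60 at 2 weeks and 8.32, 9.22 and 9.95 at 4 weeks, against 8.71, 9.44 and 9.35 in uninjured hearts. Both had their highest mean at 7 days, by 0.62 (adjusted p = 0.302) and 1.13 (adjusted p = 0.163), and for Col4a2 the adjusted p was 0.00832 with the replicate block. Markers of endothelial cells, which make Col4a1 and Col4a2, were low at 3 days and those of macrophages high at 7 days, and their part in these values was not tested. Group means of Col4a5 and Col4a6 ranged over 0.67 and 0.37.

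**Figure D4:**
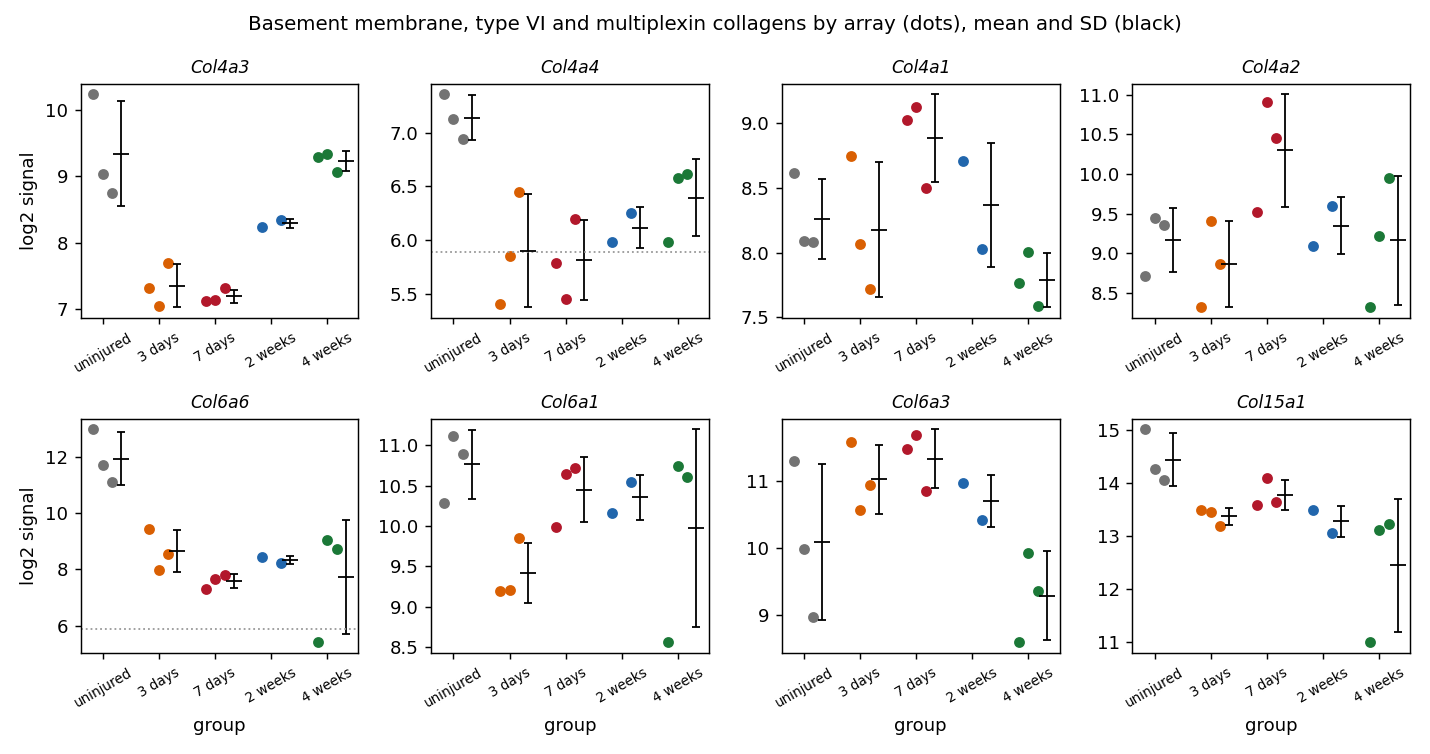
Log2 signal of 4 basement membrane, 3 type VI and 1 other collagen gene on each array (dots) by group, with the group mean and SD in black and the background level of 5.89 as a dotted line where it falls in range. Col4a3 is back among the uninjured arrays at 4 weeks while Col6a6 stays below them, and 4 weeks replicate 1 stands low in Col6a6, Col6a1 and Col15a1.

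Among type VI chains, Col6a6, one of the long chains that can take the place of the Col6a3 chain, had the largest fall of the family. Its signals were 9.43, 7.96 and 8.54 at 3 days, 7.31, 7.66 and 7.80 at 7 days, then 8.42 and 8.24 at 2 weeks and 5.41, 9.04 and 8.72 at 4 weeks, against 12.97, 11.72 and 11.10 in uninjured hearts. None of the 11 arrays after MI reached an uninjured array, and 4 weeks replicate 1 was the only array below background. Col6a6 was 9.74-fold lower at 3 days (adjusted p = 0.00979), 20.3-fold lower at 7 days (adjusted p = 0.00215), 12.1-fold lower at 2 weeks (adjusted p = 0.0382) and 18.5-fold lower at 4 weeks (adjusted p = 0.00864). Cardiomyocyte markers were below their uninjured range at 3 days and overlapped with it at 7 days, 2 weeks and 4 weeks, and their part in the fall was not tested. Without 4 weeks replicate 1 the log2 difference at 4 weeks was -3.05, compared with -4.21 on all arrays. The call at 3 days was lost without 3 days replicate 2, and that at 2 weeks in 10 of 25 alternatives, among them the fits without any 1 of the uninjured or 2-week arrays, with log2 differences between -4.01 and -1.92 over all alternatives.

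Col6a1 and Col6a2, the chains that every type VI molecule holds, had their lowest means at 3 days. Col6a2 had signals of 10.07, 9.72 and 10.14 at 3 days, against 10.44, 10.99 and 11.21 in uninjured hearts, a log2 difference of -0.90 ± 0.27 (SE, adjusted p = 0.0407) that 14 of 25 alternatives did not call, with values between -1.17 and -0.74. Among these were the fits without any 1 array at 3 days, either array at 2 weeks, uninjured replicate 2 or 3, 7 days replicate 3 or 4 weeks replicate 2. Col6a1 had signals of 9.19, 9.21 and 9.85 at 3 days, against 10.29, 11.12 and 10.89 in uninjured hearts, and its log2 difference of -1.35 ± 0.47 was not called (adjusted p = 0.0868, and 0.0106 with the replicate block). Endothelial markers were also low at 3 days, as given above, and their part in this was not tested. Col6a3 had signals of 11.58, 10.56 and 10.93 at 3 days, 11.47, 11.68 and 10.84 at 7 days, then 10.97 and 10.42 at 2 weeks and 8.59, 9.92 and 9.35 at 4 weeks, against 11.29, 9.98 and 8.97 in uninjured hearts. The uninjured arrays, with an SD of 1.16, overlapped with every later group, and no difference from them was called. Col6a4 and Col6a5 had no group mean above background.

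Of the 11 other collagens, Col8a1, a short-chain collagen of vessel walls and of the lining of the cornea, rose. Its signals were 6.85, 6.32 and 6.58 at 3 days, 7.77, 6.42 and 6.63 at 7 days, then 7.22 and 6.75 at 2 weeks and 6.14, 5.74 and 5.76 at 4 weeks, against 5.51, 5.44 and 5.22 in uninjured hearts, all 3 of which were below background. All arrays after MI were above the uninjured ones. Measured against the background level, the rise was at least 1.62-fold at 3 days, 2.07-fold at 7 days and 2.13-fold at 2 weeks (adjusted p = 0.0196, 0.00559 and 0.0233), and the log2 difference was 0.49 at 4 weeks. The call at 3 days was lost without uninjured replicate 2 or 3 or 3 days replicate 1 or 3, and that at 2 weeks without uninjured replicate 2 or 3 or either 2-week array. Its partner chain gene Col8a2 had log2 differences of 0.41, 0.64, 0.42 and 0.44, none of them called.

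Col15a1 encodes a multiplexin, a collagen linked to basement membranes that carries glycosaminoglycan chains. It had signals of 13.48, 13.44 and 13.19 at 3 days, 13.59, 14.10 and 13.63 at 7 days, then 13.48 and 13.06 at 2 weeks and 10.99, 13.11 and 13.23 at 4 weeks, against 15.01, 14.26 and 14.05 in uninjured hearts. Its log2 difference at 4 weeks was -1.99 ± 0.47 (SE, adjusted p = 0.0457), and -1.27 without 4 weeks replicate 1. That call was lost in 17 of 25 alternatives, among them the fits without any 1 array other than 4 weeks replicate 2 or 3, and at 3 days, 7 days and 2 weeks the differences of -1.07, -0.66 and -1.17 were not called. Col18a1, the other multiplexin, which releases endostatin, had signals of 7.44, 8.20 and 8.15 at 3 days, 9.33, 10.62 and 9.26 at 7 days, then 7.35 and 7.42 at 2 weeks and 6.34, 8.23 and 8.35 at 4 weeks, against 7.58, 9.16 and 8.89 in uninjured hearts. It differed over the 5 groups (F test, adjusted p = 0.0487) with all arrays at 7 days above all others, and macrophage markers were also highest at 7 days. Their part in Col18a1 was not tested.

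The remaining genes of this class gave small or dim changes. Col26a1 had signals of 4.89, 4.32 and 4.17 at 3 days, against 5.18, 6.99 and 5.77 in uninjured hearts, where 1 of 3 arrays was above background. It was called lower at 3 days (adjusted p = 0.0213), and without uninjured replicate 2 or without 3 days replicate 2 or 3 the call was lost. With all arrays below background set to that level, the fall was 1.29-fold and rested on uninjured replicate 2 alone. Col25a1, a membrane collagen known from neurons, was called higher at 3 days by 0.83 (adjusted p = 0.0493) although it was below background on all 14 arrays, and 15 of 24 alternatives did not call it, among them 11 fits without 1 array. Col13a1 and Col17a1, membrane collagens of cell junctions, Col10a1, the collagen of hypertrophic cartilage, Col23a1 and Col28a1 were called in no comparison without the replicate block, with group means that ranged over 0.64, 0.65, 0.75, 0.38 and 0.14. With the block Col17a1 was lower at 7 days, by -0.65 (adjusted p = 0.0327, and 0.0559 without it). All its arrays at 7 days were below background (5.45, 5.25 and 5.59), and those of uninjured hearts were just above it (6.12, 6.17 and 5.94).

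Between successive times, 4 collagens were higher at 7 days than at 3 days, and 3.35% of all genes were higher and 3.14% lower in that step. They were Col11a1 (18.8-fold, adjusted p = 0.00854), Col14a1 (3.29-fold, adjusted p = 0.002), Col5a2 (2.41-fold, adjusted p = 0.00185) and Col16a1 (2.29-fold, adjusted p = 0.0146). None was called lower, with 1 at an unadjusted p under 0.05 (8.82% of all genes) and 1 by Tukey's test unadjusted over genes (3.79%). With the replicate block 8 collagens and 5.77% of all genes were higher, so that calls rose in both, and the added collagens were Col1a2, Col4a1, Col4a2 and Col18a1 (adjusted p = 0.0248, 0.0484, 0.00242 and 0.00626). The call of Col16a1 was lost without 3 days replicate 1 or 2 or 7 days replicate 2 or 3. From 7 days to 2 weeks Col5a2 changed by -1.45 (log2, adjusted p = 0.00465), where 0.4% of all genes were higher and 1.19% lower, and the call was lost without 2 weeks replicate 2. The replicate block added Col11a1 and Col18a1 to the lower calls of that step (adjusted p = 0.0417 and 0.0126), making 3, and 2.73% of all genes were then lower. No collagen was called higher in that step, with 2 at an unadjusted p under 0.05 (5.71% of all genes) and 0 by Tukey's test (1.36%).

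From 2 to 4 weeks no collagen was called in either direction by limma, nor were most genes (0.0103% of all genes higher and 0.0154% lower). At an unadjusted p under 0.05, 2 collagens were higher and 9 lower (all genes 2.7% and 2.17%), and Tukey's test unadjusted over genes called 0 higher and 5 lower (all genes 0.523% and 0.472%). Over the longer span, 9 collagens were lower and 1 higher at 4 weeks than at 7 days, against 2.78% and 1.56% of all genes. The fall was 5.11-fold for Col5a2 (adjusted p = 1.64e-05), 4.16-fold for Col5a1 (adjusted p = 0.00133), 3.36-fold for Col1a2 (adjusted p = 0.000987), 2.70-fold for Col3a1 and 2.49-fold for Col1a1 (adjusted p = 0.00522 for both). Col11a1, Col16a1, Col6a3 and Col18a1 were also lower (log2 differences of -3.28, -1.09, -2.04 and -2.10, adjusted p between 0.0328 and 0.0451), and these calls were lost in 12, 8, 7 and 17 of 25 alternatives. Col11a1 lost it without uninjured replicate 2 or 3, 3 days replicate 3, 7 days replicate 1 or 3 or 4 weeks replicate 2 or 3, Col16a1 without any 1 array at 7 days or 4 weeks, and Col6a3 without uninjured replicate 2, any array at 7 days or 4 weeks replicate 1 or 3. Col18a1 lost it without any 1 array other than uninjured replicate 1 or 4 weeks replicate 3. With the replicate block 14 collagens and 4.7% of all genes were lower, the added collagens being Col2a1 (adjusted p = 0.0222), Col4a1 and Col4a2 (adjusted p = 0.00713 and 0.0133), Col14a1 (adjusted p = 0.018) and Col8a1 (adjusted p = 0.0097). Col4a3 was the one that was higher, by 4.12-fold (adjusted p = 0.00187). Without the block Col14a1 and Col27a1 were not called in this span (log2 differences of -0.81 and -0.28). At 4 weeks Col2a1 was below background on every array, and Col8a1 on all but replicate 1 (6.14, 5.74 and 5.76).

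Chains that share a protein did not always change by the same amount. The log2 difference between Col1a2 and Col1a1, with its mean in uninjured hearts set to 0, was 0.39 to 0.48 at 3 days, 0.73 to 0.90 at 7 days, then 0.34 and 0.92 at 2 weeks and 0.34 to 0.38 at 4 weeks, against -0.04 to 0.06 in uninjured hearts. All 11 arrays after MI were above all 3 uninjured arrays. The signals of Col1a1 are the higher ones, up to 17.79 in a table that reaches 19.49, and whether probes of so bright a gene respond less than those of Col1a2 was not tested. For Col5a2 and Col5a1 the same measure was 0.09 to 0.56 at 3 days, 0.99 to 1.40 at 7 days, then 0.50 and 0.82 at 2 weeks and 0.28 to 1.76 at 4 weeks, against -0.10 to 0.06, again with all 11 arrays above. Signals of Col5a1 were likewise the higher ones (12.04 to 14.99, against 7.64 to 11.01), and unequal response of the probes was not tested. Col6a3 against Col6a1 was 1.76 to 3.07 at 3 days, against -1.23 to 1.69 in uninjured hearts, and 5 of 11 arrays were above the uninjured range. Col8a2 against Col8a1 was below that range on 8 of 11 arrays. These pairs were picked after their values had been seen and carry no test.

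**Figure D5:**
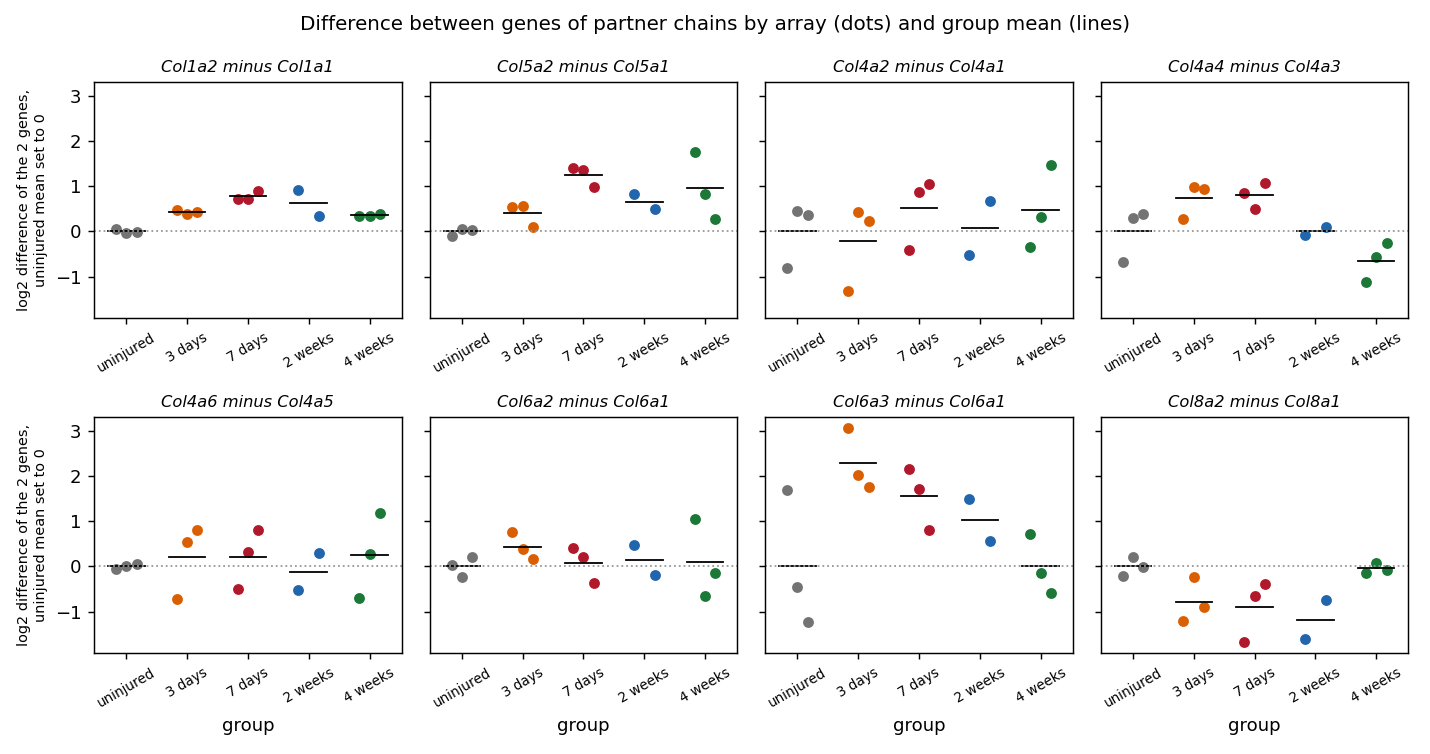
Log2 signal of one chain minus that of its partner on each array (dots), with the uninjured mean set to 0, and group means as lines, by group for 8 pairs. Col1a2 minus Col1a1 and Col5a2 minus Col5a1 lie above the uninjured arrays on all 11 arrays after MI. Col4a6 minus Col4a5 lies above them on 7 arrays and below them on the 4 arrays after MI that are numbered 1. Col4a6 is near background, with group means of 5.74 to 6.11. Col8a2 minus Col8a1 lies below the uninjured arrays on every array at 3 days, 7 days and 2 weeks and among them at 4 weeks. The other pairs overlap with the uninjured arrays.

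Genes whose products modify, cut and crosslink collagen chains were set beside the chains themselves. Of 33 listed, 29 were measured, and 13 were higher and 3 lower at 3 days (all genes 6.74% and 5.82%) and again at 7 days (all genes 4.62% and 3.49%). At 2 weeks 5 were higher and 1 lower (all genes 1.31% and 1.18%), and at 4 weeks the counts were the same (all genes 0.995% and 0.918%). The list's median log2 difference was 1.0, 0.67, 0.32 and 0.19 at these times, and that of all genes -0.02, 0.02, -0.02 and 0.01. Lox, which starts the crosslinks between chains, had log2 differences of 6.86, 7.29, 5.89 and 3.81, called at every time (adjusted p = 5.71e-07, 3.53e-07, 3.05e-05 and 0.000444). P4ha3, a prolyl hydroxylase subunit, was above background on 1 of 3 uninjured arrays, and with the others set to the background level its differences were 4.75, 5.8, 4.05 and 1.51, called at every time. Plod2, the lysyl hydroxylase of telopeptides, had differences of 2.77, 3.0, 2.74 and 1.60, all called. Loxl3, a further lysyl oxidase, had differences of 2.78, 3.06, 1.94 and 1.89, all called. Serpinh1, the collagen chaperone, was called at 3 days only, by 1.26 (adjusted p = 0.00201). P3h2, which hydroxylates prolines mainly of type IV collagen, was lower at 3 days, by -1.16 (adjusted p = 0.0375), and higher at 2 and 4 weeks, by 2.37 and 2.38 (adjusted p = 0.00331 and 0.00155). Colgalt2, a collagen galactosyltransferase, was lower at all times, by -3.43, -3.54, -1.76 and -1.59. Of 7 measured collagen receptors, 1 was higher at 3 days and 2 at 7 days (all genes 6.74% and 4.62%), with none called at 2 or 4 weeks. Itgb1 was higher at 3 days by 1.19 (adjusted p = 0.0325), and Itga11, whose integrin binds type I collagen, was higher at 7 days by 1.26 (adjusted p = 0.00287). Lair1, a receptor of immune cells, was below background on all uninjured arrays and at least 1.59-fold higher at 7 days (adjusted p = 0.0364). Macrophage markers were also highest at 7 days, and their part in this was not tested.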

How the data were processed

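RNA of sorted GFP-positive cells was amplified and labelled from the 3′ end and measured on arrays of the Clariom S Mouse type. The authors deposited gene-level log2 signals, and their processing notes name Expression Console. Its algorithm and build are not given in the sources used here. The study's methods name the Transcriptome Analysis Console for comparisons, and Tukey's test after 1-way ANOVA for single values. Of 28846 rows, 6704 are controls, and 19505 genes remained with 1 row each (the one with the highest mean). Array medians were 6.34 to 6.46 and no further normalization was applied. No depth applies to arrays, so their number limits the precision.

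Group means of all 14 arrays were fitted in 1 model with limma 3.58.1 in R 4.3.3, with moderated tests and Benjamini-Hochberg adjustment over all genes. Each time was compared with uninjured hearts and with the time before, and 4 weeks with 7 days, a comparison added after the data were seen. The test was checked on simulated data. P-values measure the spread between arrays that the labels call biological replicates. Folds are 2 to the power of a log2 difference, and near background they are not ratios of transcripts. The members and lists were chosen with earlier results of these data known. Named are Col1a1, Col1a2 and Col3a1, in each class up to 5 genes with the largest difference among those the F test called, the brightest gene of the class and partner chains, and the rest by counts and ranges. Of the other marker lists, summed signals were 6.24 to 7.25 for Schwann cells and 6.99 to 8.32 for epicardium over all arrays, and those of pericytes and smooth muscle were 10.02 to 10.59 at 3 days, 11.35 to 12.34 at 7 days, 10.24 to 11.39 at 2 weeks and 10.78 to 11.48 at 4 weeks, against 10.61 to 11.59 in uninjured hearts.

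Same-numbered arrays were checked for pairing by the correlation of their deviations from group means over all genes. It was 0.17 to 0.63 between each array after MI and the uninjured array of its number, and the numbers were used as a block on that ground. Arrays of different numbers were not set against each other in this way, and the arrays numbered 1 stood apart from the others. The check therefore cannot tell a pairing of all arrays from that difference alone. The block comes from the data, as the labels only number the replicates. The alternatives were the replicate block, array median centring, quantile normalization, a filter on dim genes, a fit of only the 2 groups compared, the mean over rows of a symbol, eBayes with trend and robust settings, Tukey's test, a fit without the arrays numbered 1, a block by Y-linked class, and each array left out in turn. Motifs were searched in RefSeq promoter windows of GRCm38.p6, which 34 of the 42 collagens have.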

Additional observations from a re-analysis of the deposited data

How the results depend on the processing

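Of 54 calls of single collagens, the replicate block and the mean over rows kept all 54, array median centring 53, quantile normalization 51, the fit without the arrays numbered 1 52, the fit of only the 2 groups 44, the Y-linked class block 44, and Tukey's test 50 before and 18 after Benjamini-Hochberg adjustment. Leaving out 1 array kept 43 to 51, and no call changed direction. With Tukey's test after adjustment the counts were 4 higher and 1 lower at 3 days, 6 higher and 1 lower at 7 days, 3 higher and 0 lower at 2 weeks, and 0 in both directions at 4 weeks against uninjured hearts, 1 higher at 7 than at 3 days, 0 lower at 2 weeks than at 7 days, and 0 higher and 2 lower at 4 weeks than at 7 days. Unadjusted it gave 5 higher at 4 weeks than in uninjured hearts, 1 lower at 7 than at 3 days and 5 lower at 4 than at 2 weeks. The replicate block gave 5 higher at 4 weeks (added were Col1a1, Col5a2 and Col11a1; 1.74% of all genes), 8 higher at 7 than at 3 days, 3 lower at 2 weeks than at 7 days and 14 lower at 4 weeks than at 7 days, moved no other count by over 1.5 times and ended no call. Without the arrays numbered 1 the counts were 6 higher at 4 weeks, 7 higher at 7 than at 3 days, 2 lower at 2 weeks than at 7 days and 2 higher at 4 weeks than at 7 days. The Y-linked class block gave 4 higher and 0 lower at 2 weeks and 1 lower at 4 weeks, quantile normalization 1 lower at 4 weeks, and the fit of only the 2 groups 1 higher and 0 lower at 4 weeks and 0 lower at 2 weeks than at 7 days. For most of these counts of collagens, and for those with 1 array left out given next, no share of all genes under the same setting was set beside them. They are not read as shifts particular to collagens, and their cause was not tested.

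With 1 array left out, the counts ranged from 2 to 7 lower at 3 days, 5 to 9 higher and 0 to 2 lower at 2 weeks, 1 to 3 higher and 1 to 2 lower at 4 weeks, 3 to 8 higher at 7 than at 3 days (8 without 4 weeks replicate 1), 0 to 1 higher and 0 to 2 lower at 2 weeks than at 7 days, and 5 to 10 lower at 4 weeks than at 7 days. Where that leaves 1 array at 2 weeks, it is assumed to vary like the other groups. Col8a1 has only a bound where a group lies below background. Col26a1 has a fold against the background level that rests on 1 array, and Col25a1, below background on every array, has none.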
